A study of Mus musculus with 8 samples.

Results

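The mouse genes whose symbol is Zfp followed by a number encode zinc finger proteins, and their promoters and gene bodies are described here in a SOX9 CUT&Tag experiment on the spinal cord. Members were all protein-coding genes of chromosomes 1 to 19 with such a symbol in GENCODE release M21, which gave 358 of 20807 coding genes. A promoter was the window of 1 kb to each side of the annotated 5′ end of the gene, and a gene body ran from the annotated start to the end. A member was clustered when the gap to the gene body of another member was at most 100 kb, and single otherwise. This put 204 members into 49 clusters and left 154 single. Only members counted as neighbours, so that single does not exclude a nearby zinc finger gene with another symbol.

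Most proteins of this family bind DNA through arrays of C2H2 zinc fingers, and many carry a KRAB domain at the N-terminus. KRAB zinc finger proteins recruit TRIM28, which brings the histone methyltransferase SETDB1 and heterochromatin proteins, and the resulting H3K9 methylation silences transposable elements and some imprinted loci. The family grew by tandem gene duplication, so that many members lie side by side in clusters and share sequence with their neighbours.

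Nuclei came from the spinal cord of wild-type mice, either uninjured or 1 day after a contusion injury (1 dpi), with 1 male (M) and 1 female (F) library in each condition. For each of these 4 SOX9 libraries, a secondary-only control library was made without the SOX9 antibody from part of the same nuclei, giving 8 libraries in 4 groups of 2. The tissue was a short segment around the injury, or the same level of the uninjured cord, and nuclei were sorted on a DNA stain. The comparison of injured with uninjured cord asks where SOX9, a transcription factor of astrocytes and other glia, sits on chromatin before and after injury.

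The SOX9 libraries differed in depth. Coverage of the uninjured libraries came from 1901433 (M) and 7248962 (F) fragments, and that of the 1 dpi libraries from 2538725 (M) and 2396777 (F), counted from the upward steps of the coverage. All levels below are the mean coverage of a window divided by the mean coverage of the library over chromosomes 1 to 19, so that 1 is the library mean. The median number of fragments starting in a member promoter was 5 in the uninjured M library, 37 in the uninjured F library, 10 in the 1 dpi M library and 8 in the 1 dpi F library. No fragment started in the window of 22, 11, 17 and 16 members in the same order, and coverage was 0 over the window of 22, 9, 16 and 12. The values of individual genes outside the uninjured F library rest on few fragments.

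The control libraries were far shallower, with 22848 (uninjured M), 47049 (uninjured F), 53341 (1 dpi M) and 10948 (1 dpi F) fragments. Of their fragments that overlapped no other, 93.5%, 82.2%, 86.0% and 91.3% had both ends among the fragment ends of a SOX9 library, and 35.0%, 25.8%, 32.2% and 30.3% were the same as a fragment that overlapped no other there. Coverage of chromosome Y over the autosomal mean was 0.310 and 0.173 in the SOX9 M libraries against 0.0269 and 0.0392 in the SOX9 F libraries, higher in M than in F as labelled. Coverage of chromosome X over the same mean was 0.347 and 0.283 in M and 0.276 and 0.386 in F, which did not separate the sexes. In the controls the chromosome Y ratio was 0.0553 and 0.0735 for M and 0.0600 and 0.0354 for F, with no such separation. The controls are thus given only as shares of fragments over sets of windows, with and without the fragments that had both ends in a SOX9 library.

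Promoters of Zfp genes were covered well above the library mean in all 4 SOX9 libraries. The median member promoter stood at 3.59 (M) and 6.55 (F) times the mean in the uninjured cord and at 5.10 (M) and 4.21 (F) at 1 dpi. As group values this was 5.07 ± 2.09 (SD, n = 2) uninjured and 4.65 ± 0.629 (SD, n = 2) at 1 dpi, and both 1 dpi libraries lay between the uninjured ones. The uninjured F library, the deepest of the 4, was the highest and the uninjured M library, the shallowest, was the lowest; the part of depth in this order was not tested. Flanks from 1 to 3 kb outside the same 5′ ends stood at 1.15, 1.39, 1.18 and 1.22 in the order uninjured M, uninjured F, 1 dpi M and 1 dpi F, which is the order of all lists of 4 values below.

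The secondary-only libraries were also enriched at these windows. Of all fragments, 0.144% (95% Wilson interval 0.139 to 0.150), 0.258% (0.255 to 0.262), 0.206% (0.201 to 0.212) and 0.168% (0.163 to 0.173) started in the 709 kb of member windows, which make up 0.0288% of the chromosomes. In the controls the share was 0.238% (0.182 to 0.311), 0.189% (0.153 to 0.234), 0.196% (0.162 to 0.238) and 0.234% (0.159 to 0.346). Intervals cover counting error only. Against its own control, the SOX9 share was higher in the uninjured F pair and lower in the uninjured M pair, with intervals apart in both, and the intervals overlapped in the 1 dpi pairs. Control fragments that overlapped no other and did not have both ends among those of a SOX9 library were too few to compare, with 4 of 1355, 8 of 6777, 8 of 5845 and 3 of 889 in member windows. In the following, a level is a level of the SOX9 library at that place. How much of it is due to the antibody cannot be told apart from the controls at this depth. From 82.2% to 93.5% of the control fragments that overlapped no other had both ends among those of a SOX9 library. Whether these came from the SOX9 libraries, and so their part in the control shares, was not tested.

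Coverage peaked at the start of the genes. Averaged over members in bins of 200 bp, the highest bin was the one just inside the gene in all 4 libraries, at 9.39, 19.4, 14.7 and 11.2. At the outermost bin upstream, 3000 bp before the 5′ end, the averages were down to 1.34, 1.62, 1.39 and 1.5. For all other coding genes, the highest bin was the one just before the 5′ end, at 7.62, 17.0, 11.6 and 8.98.

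Zfp promoters stood above the median of the other 20449 coding promoters, which was 2.77, 4.55, 3.54 and 3.18. The log2 ratio of the medians was 0.37, 0.52, 0.52 and 0.40, positive in 4 of 4 libraries. An exact two-sided sign-flip permutation test over 4 libraries cannot give a p below 0.13. The mean log2 ratio of 0.46 became 0.10 with means over members, 0.18 with 2 kb windows and 0.73 with unique members against all other genes. With unique genes on both sides it was 0.42, and without olfactory receptor genes 0.30, both chosen after seeing the data. Of the members, 58.9%, 62.0%, 64.5% and 59.8% exceeded the median of all coding promoters. Their share in the top decile of all coding promoters was 8.66%, 10.6%, 10.3% and 9.22%. Promoters below the library mean were fewer among members than among other genes: 15.9%, 11.5%, 13.1% and 12.0% of members were below the library mean, against 28.2%, 26.7%, 27.0% and 26.9% of the other genes. Among genes with a CpG ratio (observed over expected CpG in the promoter window) of at least 0.5, an alternative chosen after seeing the data, the ratio of medians turned to a mean of -0.12, below 0 in 4 of 4 libraries. By bands of this ratio the order varied. Below 0.25 the members were higher in 3 of 4 libraries. From 0.25 to 0.5 they were higher in 4 of 4, with medians of 2.89, 4.45, 4.01 and 3.02 against 2.26, 3.22, 2.7 and 2.56 for other genes. From 0.5 to 0.75, the 147 members were higher in 2 of 4, with 5.01, 9.45, 6.57 and 5.71 against 5.00, 9.36, 6.98 and 6.0. At 0.75 or more, the 33 members were lower in 4 of 4. By share of fragments per window length, the controls had 8.26, 6.57, 6.82 and 8.15 times the genome average at member windows. Windows of other coding genes had 6.27, 6.47, 5.69 and 6.47 in the controls, lower in each. This difference was not tested.

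The dispersed Zbtb genes, which pair zinc fingers with a BTB domain, had higher promoters than the Zfp genes. Their 39 promoters had medians of 6.61, 11.8, 9.07 and 7.69. The olfactory receptor genes, another family that expanded in clusters, were low: in 68.7%, 50.4%, 71.8% and 65.6% of 1087 Olfr promoters no fragment started. Median CpG ratios were 0.714 for Zbtb, 0.501 for Zfp and 0.109 for Olfr genes, the same order as their promoter levels. Neither difference was tested, nor was the part of the CpG ratio in it.

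Clustered members had lower promoters than single ones in every SOX9 library. The median clustered promoter stood at 3.21, 5.46, 4.23 and 3.43, and the median single promoter at 4.17, 8.14, 6.20 and 5.31. The log2 ratio of clustered to single medians was -0.38, -0.57, -0.55 and -0.63, with a mean of -0.53. It was below 0 in 4 of 4 libraries, the most an exact two-sided sign-flip permutation test over 4 libraries can show (smallest p 0.13). The quartiles overlapped widely: in the uninjured F library they ran from 2.76 to 9.67 for clustered and from 3.68 to 13.2 for single members. By share of fragments per window length, the controls had 5.51, 5.00, 5.02 and 6.34 times the genome average for clustered and 11.8, 8.61, 9.16 and 10.5 for single windows, from 11 clustered and 14 single fragments in the 1 dpi F control. Fragments that overlapped no other and did not have both ends among those of a SOX9 library were 1, 3, 4 and 3 in clustered and 3, 5, 4 and 0 in single windows, too few to order.

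Clustered promoters also differed from single ones in sequence. Their median CpG ratio was 0.449 against 0.553, their median GC content 47.4% against 52.0%, and 40.7% of them against 63.0% had a CpG ratio of at least 0.5. A median of 93.9% of the 32-base words sampled from clustered promoters occurred once in the genome, against 98.5% for single ones. Reads from repeated words cannot be placed with certainty, and 36.8% of clustered against 18.2% of single promoters had under 90% of such words. With only members at 90% or more, the mean log2 ratio was -0.34. Under 90%, 75 clustered members had 1.78, 2.78, 2.26 and 2.44 and 28 single ones 1.47, 2.80, 3.20 and 1.96, a mixed order. With only members of a CpG ratio of at least 0.5 (83 clustered and 97 single, chosen after seeing the data) the mean was -0.27. Both features moved with the difference, and their part in it was not tested beyond these values.

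Within bands of CpG ratio the order was not the same throughout. From 0.25 to 0.5, 100 clustered members had medians of 2.83, 4.31, 3.69 and 2.87 and 39 single ones 3.25, 4.87, 4.10 and 3.39. From 0.5 to 0.75, 75 clustered members had 4.75, 9.09, 5.62 and 5.46 and 72 single ones 5.76, 10.0, 8.12 and 6.53. Below 0.25 both were low, at 0.656, 0.258, 0.793 and 0.585 for 21 clustered and 0.629, 0.50, 0.875 and 0.754 for 18 single members, and the order was mixed. At 0.75 or more, 8 clustered members had 5.02, 13.8, 8.51 and 7.34 and 25 single ones 5.69, 10.1, 7.67 and 7.02, so that clustered members were higher in 3 of 4 libraries.

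Members were unevenly spread over the genome. Chromosome 7 held 89 of them, 71 clustered in 13 clusters, followed by chromosomes 17 with 41, 13 with 31 and 4 with 30. Of the 49 clusters, 21 were pairs. Cluster medians of the mean promoter level over the 4 SOX9 libraries ranged from 0.247 to 14.9.

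The 5 clusters with the most members had such medians from 2.5 to 6.83. A cluster of 15 on chromosome 7 from 29768552 to 30169750 (all positions are on mm10) had a median promoter of 4.75, 10.5, 7.78 and 5.53, and none of its members averaged below the library mean. In it, Zfp566 was highest, with a mean of 17.1, and Zfp82 lowest, with 3.84. The other cluster of 15, on chromosome 17 from 21383748 to 22225616, had medians of 1.93, 3.81, 3.24 and 2.61, and 3 of its members averaged below the library mean. Its members ran from Zfp820 at 0.218 to Zfp948 at 7.29.

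On chromosome 13, 14 members between 67038596 and 67553830 had medians of 1.87, 2.56, 2.18 and 1.79, the lowest of these 5 clusters, from Zfp759 at 0.322 to Zfp87 at 4.71. The nearest RefSeq start of Zfp759 lies 6568 bp from the 5′ end used here, outside the window. The 10 members on chromosome 7 from 24081924 to 24316666 had medians of 1.92, 3.84, 2.84 and 2.60, from Zfp111 at 0.773, with its nearest RefSeq start 3294 bp away, to Zfp112 at 9.18. The 8 members on chromosome 17 from 32765496 to 33110705 had medians of 2.0, 5.59, 5.22 and 2.36, from Zfp799 at 2.72 to Zfp563 at 6.88. In each of these 5 clusters the uninjured F library was the highest of the 4, as it was for the family as a whole.

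Clusters at the extremes were smaller. Among the 15 clusters of 5 or more members, the highest lay on chromosome 7 from 6131491 to 6396915, where 6 members had a median of 12.3. The lowest lay on chromosome 4 from 147492417 to 147848366, where 6 members had a median of 0.394 and 5 of them averaged below the library mean. In that cluster a median of 53.5% of the words sampled from promoters, and 38.4% of those from gene bodies, occurred once in the genome. The part of reads that could not be placed in the low level there was not tested. Clusters with a smaller share of such promoter words went both ways. A cluster of 3 on chromosome 2 from 177903340 had 11.1% and a median promoter of 5.85. A pair on chromosome 4 from 147305674 had 17.7% and 0.247.

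The highest Zfp promoter was that of Zfp78, in the chromosome 7 cluster just named, at 37.7, 99.4, 54.6 and 39.4 times the library mean (68.6 ± 43.6, SD, n = 2, uninjured and 47.0 ± 10.8 at 1 dpi). Zfp687, a transcriptional regulator tied to bone remodelling, followed at 34.5, 79.3, 50.9 and 43.6. Zfp143, a general activator that binds many promoters, stood at 31.4, 66.4, 47.1 and 42.8. In all 3 the uninjured F library was the highest and the uninjured M library the lowest, with the 1 dpi libraries between them.

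Zfp513, known for a role in the retina, stood at 31.1, 39.0, 40.5 and 30.0, and Zfp438 on chromosome 18 at 20.6, 39.5, 49.6 and 28.3. At these promoters the 1 dpi M library was highest, but the other 1 dpi library lay within or below the uninjured pair. Apart from Zfp78, these 5 were single genes.

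The 5 lowest promoters were Zfp987, Zfp735, Zfp977, Zfp936 and Zfp988. Zfp987 was listed at 0 in all 4 libraries, with 15.2% of its promoter words occurring once in the genome. Zfp735 had 0, 0.0648, 0.391 and 0, although 90.9% of its words occurred once. Zfp977 and Zfp936 averaged 0.116 and 0.160 with 51.5% and 45.5% of such words, and Zfp988 averaged 0.164 with 33.3%. The nearest RefSeq start of Zfp936 lies 63361 bp from the GENCODE 5′ end used here, outside the window. The CpG ratios of these 5 were 0.123 (Zfp987), 0.119 (Zfp735), 0.261 (Zfp977), 0.257 (Zfp936) and 0.183 (Zfp988), against a family median of 0.501.

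Promoter coverage followed CpG content across the family. Over the 358 members, the Spearman correlation of the mean promoter level was 0.62 with the CpG ratio, 0.67 with GC content, 0.44 with the share of words occurring once, and -0.28 with the share of repeat-masked bases. Over all 20807 coding promoters, the first of these was 0.72. These are descriptions across genes, which share libraries and neighbours and are not replicates. Between libraries, the levels of members correlated from 0.75 (uninjured M with 1 dpi F) to 0.89 (uninjured F with 1 dpi M).

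Sequences are shown for 3 of the 5 highest promoters, 2 of the 5 lowest and the lowest of the chromosome 17 cluster of 15. RefSeq promoters of 300 bases (250 before and 50 after the start, GRCm38.p6, the same build as mm10) were matched by symbol for 296 of the 358 members. For 26 of these 296 (8.78%) the nearest RefSeq start lay outside the window used here, 8.47% of clustered and 9.24% of single members, against 13.7% of other coding genes. The RefSeq promoters held a median of 13 CG in all 296 members, 11 in 177 clustered and 17 in 119 single members, against 7 in 25748 promoters of all genes with such a sequence. These 25748 outnumber the 20807 coding genes, so that they are not the other coding genes compared above. In the promoter windows used here, members held a median of 59 CG, against 64 in other coding genes. Capitals mark every CG, and each sequence reads 5′ to 3′ on the strand of the gene. The Zfp78 promoter, chr7:6363058-6363357 (+), holds 13 CG, that of Zfp687, chr3:95015408-95015707 (-), holds 15, and that of Zfp513, chr5:31202254-31202553 (-), holds 19. The promoter of Zfp735, chr11:73688528-73688827 (+), holds 2, that of Zfp977, chr7:42592496-42592795 (-), holds 6, and that of Zfp820, chr17:21845710-21846009 (-), holds 9.
Zfp78: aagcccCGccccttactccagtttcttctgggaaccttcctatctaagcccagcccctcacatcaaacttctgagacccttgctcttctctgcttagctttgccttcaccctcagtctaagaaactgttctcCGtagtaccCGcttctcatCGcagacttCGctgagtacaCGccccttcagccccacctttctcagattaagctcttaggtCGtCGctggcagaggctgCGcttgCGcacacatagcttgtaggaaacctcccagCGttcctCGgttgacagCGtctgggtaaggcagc
Zfp687: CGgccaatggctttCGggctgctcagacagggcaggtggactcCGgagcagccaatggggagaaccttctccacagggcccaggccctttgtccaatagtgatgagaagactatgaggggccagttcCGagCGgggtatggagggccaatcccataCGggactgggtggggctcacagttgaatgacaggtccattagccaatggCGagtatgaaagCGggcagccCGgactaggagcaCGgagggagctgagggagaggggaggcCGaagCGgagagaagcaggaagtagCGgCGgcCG
Zfp513: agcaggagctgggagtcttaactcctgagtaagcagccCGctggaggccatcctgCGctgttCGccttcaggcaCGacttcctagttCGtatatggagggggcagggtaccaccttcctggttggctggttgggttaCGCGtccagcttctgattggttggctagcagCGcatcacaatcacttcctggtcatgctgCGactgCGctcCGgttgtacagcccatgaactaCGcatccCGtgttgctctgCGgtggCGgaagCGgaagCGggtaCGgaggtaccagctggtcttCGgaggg
Zfp735: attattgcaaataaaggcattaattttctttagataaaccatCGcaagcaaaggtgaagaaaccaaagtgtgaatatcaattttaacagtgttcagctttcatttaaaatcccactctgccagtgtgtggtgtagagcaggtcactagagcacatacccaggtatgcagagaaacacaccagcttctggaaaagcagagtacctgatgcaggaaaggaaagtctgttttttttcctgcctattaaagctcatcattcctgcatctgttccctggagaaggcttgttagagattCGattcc
Zfp977: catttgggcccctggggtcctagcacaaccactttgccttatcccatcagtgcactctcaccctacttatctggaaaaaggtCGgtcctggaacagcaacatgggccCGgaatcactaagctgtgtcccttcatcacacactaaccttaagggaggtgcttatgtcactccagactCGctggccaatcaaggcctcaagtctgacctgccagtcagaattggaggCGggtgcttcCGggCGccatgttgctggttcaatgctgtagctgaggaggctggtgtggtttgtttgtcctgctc
Zfp820: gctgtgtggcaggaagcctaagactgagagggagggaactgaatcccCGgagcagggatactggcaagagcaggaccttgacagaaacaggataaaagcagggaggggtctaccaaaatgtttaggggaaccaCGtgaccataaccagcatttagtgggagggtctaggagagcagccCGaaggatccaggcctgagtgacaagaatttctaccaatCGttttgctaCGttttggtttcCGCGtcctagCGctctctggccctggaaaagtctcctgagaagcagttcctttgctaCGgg

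Short words bound by SOX proteins were counted, and no difference in their frequency was tested. Within 250 bp of the 5′ end on either strand, ACAAAG occurred in 31.6% of members (33.8% of clustered and 28.6% of single) against 25.2% of other coding genes, and ACAATG in 14.8% against 14.7%. In the RefSeq promoters, ACAAAG occurred in 17.6% of members against 18.6% of all promoters, and ACAATG in 11.1% against 12.4%. Members with ACAAAG had median promoters of 3.20, 6.58, 4.72 and 3.87, and those without it 3.74, 6.51, 5.22 and 4.32, so that the 245 without it were higher in 3 of 4 libraries. The AP-1 word TGACTCA or its other form TGAGTCA occurred in 13 members, 3.63%, against 6.43% of other genes.

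Members with a neighbouring start had higher median promoters. In 39 members the window held the 5′ end of another coding gene, and their medians were 6.83, 13.8, 9.43 and 6.96. The 319 members with no such neighbour had 3.26, 6.08, 4.59 and 3.72. For the other coding genes the same split gave 6.30, 12.6, 8.96 and 7.65 against 2.3, 3.56, 2.86 and 2.67, the same order as at members. None of the 5 highest member promoters had such a neighbour. With only members whose RefSeq start lies in the window (162 clustered and 108 single, chosen after seeing the data), the clustered to single log2 ratio had a mean of -0.61. Without members whose window holds another 5′ end, the clustered to single log2 ratio had a mean of -0.44.

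Gene bodies were covered near the library mean. The median member body stood at 1.24, 1.47, 1.29 and 1.26, against 1.41, 1.55, 1.48 and 1.46 for other coding genes. The log2 ratio of these medians was -0.18, -0.077, -0.20 and -0.21, below 0 in 4 of 4 libraries. Its mean of -0.17 became -0.39 with means over members and -0.36 outside 1 kb of the 5′ end. Repeated sequence moved with this difference: 43.3% of member bodies against 28.4% of other bodies had under 90% of sampled words occurring once. With only genes at 90% or more on both sides, chosen after seeing the data, the mean log2 ratio was 0.084, on the other side of 0 from the -0.17 over all genes.

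Clustered bodies were lower than single ones in the median over all members. Their medians were 1.08, 1.37, 1.11 and 1.15 against 1.46, 1.74, 1.52 and 1.42, a log2 ratio of -0.43, -0.34, -0.45 and -0.31 (mean -0.38, below 0 in 4 of 4 libraries). With only unique bodies the mean was -0.22. By CpG ratio of the promoter, the order of bodies was not the same throughout. From 0.25 to 0.5, 100 clustered bodies had 1.01, 1.13, 1.02 and 0.963 and 39 single ones 1.20, 1.12, 0.935 and 0.921, and at 0.75 or more, 8 clustered bodies had 1.74, 3.17, 2.76 and 2.38 and 25 single ones 1.78, 2.08, 1.84 and 1.97. Clustered bodies were thus higher in 3 of 4 libraries in both. Body and promoter levels went together across the 358 members, with a Spearman correlation of 0.73. Part of this is built in, since a body includes the inner 1 kb of the promoter window, and with the body outside 1 kb of the 5′ end the correlation was 0.60. Of the members, 26 had a body above their promoter.

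The 5 highest bodies belonged mostly to short genes, where the 5′ end makes up much of the body. Zfp524, in a cluster on chromosome 7, had a body of 4074 bp at 11.3, 26.8, 21.5 and 14.8, and Zfp513, of 3323 bp, stood at 15.1, 19.1, 18.8 and 12.6. Zfp36, of 3470 bp, encodes an RNA-binding protein with CCCH fingers that speeds the decay of inflammatory mRNAs, and thus carries the symbol without belonging to the C2H2 family. Its body stood at 8.32, 11.8, 14.9 and 9.46 and its promoter at 8.17, 12.1, 13.3 and 11.5 (nearest RefSeq start 1025 bp away), with the 1 dpi libraries overlapping the uninjured ones. Zfp771, of 10530 bp, and Zfp414, of 2690 bp, had body means of 11.8 and 9.39. By contrast, the Zfp78 body averaged 1.42 beneath the highest promoter of the family.

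Of 24 members listed for what is known of them, 23 were found, Zfp191 being an older name of Zfp24. Of these, 16 lay above the median coding promoter and 6 in the top decile. Among those in the top decile, Zfp91, a ubiquitin ligase, stood at 20.6, 45.4, 38.0 and 22.4, Zfp335, which acts in neural progenitors, at 16.4, 23.2, 19.4 and 21.4, and Zfp384 at 21.4, 25.9, 19.3 and 13.2. Zfp24, needed for myelination by oligodendrocytes, stood at 10.3, 27.5, 26.5 and 14.6. Zfp219, described as a partner of SOX9 in cartilage, stood at 14.0, 26.2, 23.0 and 22.1. In each of these the conditions overlapped, except that the 1 dpi libraries of Zfp384 lay below both uninjured ones.

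Below the median coding promoter, Zfp42 (Rex1), a marker of pluripotent cells, stood at 0, 0.417, 0.585 and 0, with at most 3 fragments in a library. Zfp57, which guards imprinted loci, had 1.16, 1.29, 2.48 and 2.0, and Zfp445, with a like role, had 1.92, 3.14, 4.24 and 2.68. Zfp750, of epidermal differentiation, had 0.982, 2.1, 3.04 and 3.25. For Zfp57 and Zfp750 both 1 dpi libraries lay above both uninjured ones, on 1 to 13 fragments a library, and neither passed the test below.

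Among KRAB members with known targets, Zfp809, which silences retroviral elements, stood at 5.28, 12.5, 14.1 and 5.19, and Zfp568, which represses Igf2 in the placenta, at 2.91, 10.5, 8.83 and 5.07. Each had its highest levels in the uninjured F and 1 dpi M libraries, so that the conditions overlapped. Zfp423 had 1.87, 7.22, 6.47 and 7.20, Zfp521 had 1.47, 7.41, 4.45 and 5.53, Zfp462 had 3.28, 4.59, 2.98 and 3.0, and Zfp536, with its nearest RefSeq start 3889 bp away, had 3.37, 3.75, 3.98 and 2.64. Of these, Zfp462 alone had both 1 dpi libraries below both uninjured ones. Zfp281 (5.19, 8.94, 9.0 and 8.30) and Zfp148 (6.57, 5.02, 7.99 and 5.88), which bind GC-rich promoters, also overlapped between conditions.

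The genes through which KRAB zinc finger proteins act had a median promoter above that of the Zfp genes in all 4 libraries. Of 24 such genes listed, 22 lay on chromosomes 1 to 19, with median promoters of 6.20, 10.2, 7.94 and 6.02. Cbx3 and Cbx5, which encode heterochromatin proteins, stood at 30.4, 59.7, 48.3 and 34.1 and at 30.0, 57.2, 38.1 and 28.6. Setdb1 had 3.56, 5.24, 5.26 and 3.07, while Trim28 had 0.105, 1.23, 1.36 and 0.631 and was below the filter for testing. The nearest RefSeq start of Trim28 lies 25038 bp from the 5′ end used here, and its body stood at 2.73, 4.41, 3.59 and 2.71. None of the 21 tested passed the threshold between conditions by limma, against 0.00644% of all tested promoters. None had an unadjusted p under 0.05, against 1.71%, none had both 1 dpi libraries above both uninjured ones, against 7.36%, and 2 had both below, against 14.9%.

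No Zfp promoter passed the threshold between uninjured and 1 dpi cord. Values were log2 of the level plus 0.5, fitted by limma over the 15538 coding promoters that averaged at least 1 over the 4 SOX9 libraries, and 319 of the 358 members were among them. None of these 319 reached an adjusted p of 0.05 and their lowest adjusted p was 1.00, while 1 of all promoters tested did (0.00644%). At an unadjusted p under 0.05 there were 9 of 319 members, 2.82%, against 1.71% of all tested promoters: 4 were higher at 1 dpi (1.25%, against 0.792%) and 5 lower (1.57%, against 0.914%). Of these 9, 8 were among the 181 clustered members tested (4.42%) and 1 among the 138 single ones (0.725%). The member share fell below that of all tested promoters under some settings. It was 4.08% against 4.29% with values centred on the median tested promoter and 1.96% against 2.94% with no filter. With all 8 libraries it was 5.02% against 5.39%. Under the remaining settings that kept the 4 SOX9 libraries it stayed above. The 9 became 44 without the uninjured F library (13.8%, against 11% of all tested promoters), and 21 without the uninjured M library (6.58%, against 6.30%). They became 4 without the 1 dpi M library (1.25%, against 1.20%) and 5 without the 1 dpi F library (1.57%, against 0.779%), with 0 past the adjusted threshold each time. The 1 promoter called was that of Gm11361, a predicted gene on chromosome 13, at 0, 0.853, 5.44 and 15.0. It passed the filter through its 1 dpi mean of 10.2, against 0.427 uninjured, and is named only after its values were seen. No promoter was called with trimmed mean scaling, with no filter or with all 8 libraries.

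A minority of members had conditions that did not overlap. Both 1 dpi libraries lay above both uninjured ones in 19 of 319 members, 5.96%, against 7.36% of all tested promoters, and below them in 52, 16.3%, against 14.9%. For clustered members the counts were 14 (7.73%) above and 35 (19.3%) below of 181, and for single ones 5 (3.62%) and 17 (12.3%) of 138. The median log2 change of the members tested was -0.061, against -0.077 over all promoters tested, with a median standard error of 0.66 for a member.

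The members with the largest change are named among those whose conditions did not overlap. Zfp973 had 0, 2.68, 4.10 and 3.39, Zfp974 had 0.661, 1.29, 3.52 and 3.52, and Zfp493 had 0.413, 2.57, 2.69 and 3.72. None of the sampled words of the Zfp973 promoter occurred once in the genome. Zfp989 and Zfp600, also higher at 1 dpi, were below the filter, with at most 4 fragments in a library. In each of these, 11.1% of the promoter words occurred once.

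In the other direction, Zfp426 had 3.88, 7.34, 0 and 3.17, and Zfp658 had 3.74, 4.57, 1.19 and 0.279. Zfp872 had 1.42, 6.11, 0.608 and 0.549. Zfp935, with its nearest RefSeq start 91699 bp away, had 3.01, 2.64, 0.781 and 0.235, while Zfp986 was below the filter. Of the promoter words of Zfp935 and Zfp986, 18.2% and 12.1% occurred once in the genome. The mean log2 change of Zfp426 was -2.11 with a standard error of 0.71 and that of Zfp658 was -2.02 with 0.76, and the adjusted p of each was 1.00 by limma. In these members the 1 dpi libraries held between 0 and 6 fragments, so that a single fragment weighs heavily.

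The sexes moved in opposite directions, for members as for all promoters. From uninjured to 1 dpi, the median log2 change of tested members was 0.52 in M and -0.54 in F, against 0.42 and -0.57 over all tested promoters. In M, 230 of 319 members (72.1%) were higher at 1 dpi, and in F, 49 (15.4%) were, against 70.6% and 20.2% of all. With 1 library for each sex and condition, sex cannot be told apart from the library. The log2 change of the median over all 358 member promoters was -0.065, and 0.016 when taken over the median coding promoter. It was 0.37 without the uninjured F library, 0.074 without the 1 dpi F library, -0.50 without the uninjured M library and -0.20 without the 1 dpi M library, so that its direction depended on the library left out. For gene bodies it was -0.081, and 0.039 without the uninjured F library. Outside 1 kb of the 5′ end it was -0.13, and over the median coding body -0.071, and in both of these the 1 dpi libraries lay below the uninjured ones.

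The difference between clustered and single members was compared between conditions as well. The log2 ratio of clustered to single promoters was -0.38 and -0.57 uninjured and -0.55 and -0.63 at 1 dpi, a difference of means of -0.11 with overlapping values. With 1 library left out it ran from -0.21 to -0.015, and the conditions did not overlap with means over members (-0.12) or with clusters at 50 kb (-0.13) or 200 kb (-0.18). For gene bodies it was -0.43 and -0.34 uninjured and -0.45 and -0.31 at 1 dpi, a difference of 0.0079. The conditions did not overlap for bodies with means over members (-0.063) or outside 1 kb of the 5′ end (-0.093), with the 1 dpi libraries lower. An exact permutation test of 2 against 2 libraries cannot give a p below 0.333, so that these comparisons cannot pass a threshold of 0.05 at any size.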

How the data were processed

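Per the methods and labels, the authors mapped the reads to mm10 with Bowtie2 2.5.4, removed duplicates with Picard 3.4.0 and called peaks with SEACR 1.3. The authors deposited whole-number coverage (signal) of fragments for each library, not scaled for depth; the step that wrote it is not stated. From this coverage, mean levels of windows were computed and divided by the mean of the library over chromosomes 1 to 19, with gene positions from GENCODE M21. Each of the 8 libraries was grouped by its title into SOX9 or control and uninjured or 1 dpi, with 1 male and 1 female library as the replicates of each, so that p-values measure the spread between those.

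Fragments were counted as upward steps of coverage, so that a fragment belongs to the window it starts in. Uniqueness was the share of sampled 32-base words found once in GRCm38.p6, on either strand. The 1 dpi against uninjured contrast was fitted with limma 3.58.1 in R 4.3.3 (trended eBayes, pseudocount 0.5, mean level of at least 1 over the SOX9 libraries, Benjamini-Hochberg adjustment over all promoters tested, threshold 0.05) on the 4 SOX9 libraries, since the values are coverage and not counts of reads. The fit was tested on simulated data. Medians were compared by exact permutation tests over libraries. No p-value is given for a summary over the members.

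Named members were the 5 highest and 5 lowest promoters, the 5 highest bodies, the extremes of the 5 clusters with most members, the 5 with the largest change in each direction among those whose conditions did not overlap, and a list of studied genes. Zfp957, Zfp189, Zfp260 and Zfp703 of that list had mean promoters of 1.32, 9.66, 9.36 and 11.0. The members and lists were chosen with earlier results of these data known. Alternatives covered scaling, pseudocount, filter, window, cluster distance, uniqueness, the RefSeq start (chosen after seeing the data), the sex term and each SOX9 library left out. Peak calls were not used here. Tables were made with Python 3.11.15 and intervals with scipy 1.17.1.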

Additional observations from a re-analysis of the deposited data

Results flagged for a closer look

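The change of promoters from uninjured to 1 dpi went in opposite directions in the M and the F libraries, and the difference was not tested, since each sex and condition has 1 library. On the log2 scale, the median promoter of all Zfp genes changed by 0.51 in M and -0.64 in F, that of clustered members by 0.40 and -0.67, and that of single members by 0.57 and -0.62. Gene bodies moved less, by 0.056 and -0.22 for all members, 0.049 and -0.26 for clustered and 0.060 and -0.29 for single ones. These bodies include the first 1 kb after the 5′ end. Outside 1 kb of it, bodies were lower at 1 dpi in both sexes, by -0.11 in M and -0.15 in F for all members, -0.14 and -0.15 for clustered and -0.036 and -0.064 for single ones. The median of other coding promoters changed by 0.35 in M and -0.52 in F, in the same directions as the members. The uninjured F library had 7248962 fragments with a mean length of 223 bp, against 256 bp in the uninjured M library and 262 and 264 bp in the 1 dpi libraries, and the part of depth and fragment length was not tested. No group had enough libraries for an outlier to be sought.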

How the results depend on the processing

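Depth limits the value of any 1 gene: a median of 5 to 10 fragments started in a member promoter in 3 of the 4 SOX9 libraries. No Zfp promoter passed the threshold under any of the 14 other settings of the limma fit, and at an unadjusted p under 0.05 their number ran from 4 (without the 1 dpi M library) to 44 (without the uninjured F library), with 9 in the fit reported. Where a library is left out, the lone library of its condition is assumed to vary like the others. Over all coding promoters, 1 call became 8 with values centred on the median tested promoter (7 higher and 1 lower), and 0 with trimmed mean scaling, with no filter, or with all 8 libraries, and 0 to 3 with a library left out. With sex as a replicate block, 0 Zfp and 1 coding promoter were called. The deviations of M from F in the uninjured and 1 dpi libraries correlated at -0.093 over 15538 promoters. With 1 library for each sex and condition, this cannot tell an effect of sex from one of the library. In the paired form, with the replicate block over M and F, the changes of the Zfp medians were the same in value, -0.065 for promoters, -0.081 for bodies, and -0.11 and 0.0079 for the clustered to single ratios. With 1 M and 1 F library in each condition these values must be equal, so that the paired form is no check on them.

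The log2 change of the median Zfp promoter at 1 dpi was -0.065, but 0.016 over the median coding promoter, and ran from -0.50 to 0.37 with a library left out. That of the median body was -0.081 and ran from -0.20 to 0.039 likewise, and was -0.13 outside 1 kb of the 5′ end and -0.071 over the median coding body. The 1 dpi change of the clustered to single promoter ratio was -0.11, from -0.18 to -0.025 under the alternatives and from -0.21 to -0.015 with a library left out. That of the body ratio had no stable direction. It was 0.0079, but -0.063 with means, -0.031 with lettered symbols, -0.069 with unique members, -0.030, -0.042 and -0.018 with clusters at 50 kb, 200 kb or 100 kb between 5′ ends, -0.093 outside 1 kb of the 5′ end, and -0.060 to 0.075 with a library left out. Zfp promoters over other coding promoters went from 0.46 to -0.12 among genes with a CpG ratio of at least 0.5 (added after seeing the data). It was 0.10 with means over members, 0.18 with 2 kb windows, 0.31 without other 5′ ends, 0.71 with 500 bp windows and 0.73 with unique members, and, added, 0.30 without Olfr genes, 0.42 with unique genes on both sides and 0.20 with a RefSeq start in the window. Zfp bodies over other bodies went from -0.17 to 0.35 with only unique members and 0.084 with unique genes on both sides (also added), and to -0.39 with means over members and -0.36 outside 1 kb of the 5′ end. The cause was not tested in any of these. The mean log2 ratio of clustered to single promoters was below 0 under each alternative run, from -0.61 (RefSeq start in the window, added) to -0.27 (CpG ratio of at least 0.5, added), and at -0.49 with each cluster counted once (added), although in some bands of CpG ratio and among members under 90% unique the order was mixed. That of bodies was too, from -0.51 to -0.19, although in the last of these (CpG ratio of at least 0.5, added) the uninjured F library stood at 0.077.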
